A study of Ovis aries with 40 samples.

Results

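The integrin subunit genes of sheep lung were examined across gestation in wild-type (WT) and *CFTR*-/- (CF) animals. Members were all genes whose symbol is ITGA or ITGB followed by a number, with an optional letter B, or by a single letter of D, E, L, M, V or X, so that relatives such as ITGB-like 1 and the ITGB1-binding proteins were left out. The rule found 26 of the 24478 genes in the count tables, 18 alpha and 8 beta subunits, and all 26 passed the filter on low counts in every fit. They were divided into 18 epithelial and matrix integrins and 8 leukocyte integrins. The matrix group held 4 subunits of collagen receptors (*ITGA1*, *ITGA2*, *ITGA10*, *ITGA11*), 4 of laminin receptors (*ITGA3*, *ITGA6*, *ITGA7*, *ITGB4*), 8 of receptors for the RGD motif and its relatives (*ITGA5*, *ITGA8*, *ITGAV*, *ITGA2B*, *ITGB3*, *ITGB5*, *ITGB6*, *ITGB8*), and *ITGA9* and *ITGB1*. The leukocyte group held *ITGA4*, *ITGAD*, *ITGAE*, *ITGAL*, *ITGAM*, *ITGAX*, *ITGB2* and *ITGB7*.

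Integrins are membrane receptors made of an alpha and a beta chain. The alpha chain largely sets which ligand is bound, such as collagen, laminin, fibronectin or a counter-receptor on another cell, and the beta chain connects through talin and kindlin to the actin cytoskeleton. In lung, laminin receptors hold epithelium and muscle to basement membrane, the alpha-v beta-6 receptor of epithelium activates latent TGF-beta, and beta-2 integrins carry leukocytes out of vessels and mark macrophages and neutrophils.

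WT and CF sheep were sampled at gestational days 65, 80, 100 and 120 and at term (day 147 in the labels), and bulk RNA from their proximal and distal lung was sequenced. There were 2 libraries for each of the 20 conditions and 40 in all, and proximal and distal libraries with the same number came from the same animal. CF animals were cloned by somatic cell nuclear transfer from 1 male line of American Romney fetal fibroblasts in which exon 2 of *CFTR* had been targeted, whereas the WT animals were naturally bred. The WT term animals were born naturally, and the delivery of the CF term animals is not given in the sources used here. The sex of the WT animals is not given in the paper. Genotype, cloning, sex and the circumstances of birth therefore cannot be told apart. The labels give 18 animal names for the 20 titles of a region: both WT libraries at 100 days carry 1 name, and WT replicate 2 at 65 days shares a name with CF replicate 2 at 100 days, so these were assigned to groups from their titles. The p-values therefore measure only the spread between these libraries, some of which may be technical. Day 50 of the study is not analysed here.

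Depth was 24670355 to 43700012 counted reads in the WT libraries before term (n = 16), 85773994 to 103139483 in the CF libraries before term (n = 16), and 115937437 to 126749480 in WT (n = 4) and 117316905 to 119451372 in CF (n = 4) at term. Depth thus differed with genotype before term and, in WT, between term and the earlier time points. Anything that came with depth cannot be told apart from these. Genotype fits on libraries thinned to equal depth are given at the end. *CFTR*, the targeted gene, was at 29.0 to 37.9 CPM, the usual count scaled to library size, in WT and 20.004 to 25.98 CPM in CF at 65 days, and at 41.8 to 43.8 CPM in WT and 16.7 to 34.9 CPM in CF at 80 days. It was at 21.6 to 31.9 CPM in WT and 12.97 to 23.2 CPM in CF at 100 days, at 11.02 to 13.3 CPM in WT and 4.99 to 10.9 CPM in CF at 120 days, and at 9.58 to 14.8 CPM in WT and 3.65 to 5.14 CPM in CF at term. These ranges pool proximal and distal lung, and pooled in this way the genotypes overlapped at 100 days and not at the other time points. Within each region both CF libraries were below both WT libraries at every time point, 100 days included. The labels call the tissue lung epithelium. All 8 lung epithelium markers listed for this work were in the tables and none was at 0 in any library, with a sum of 645 to 27279 CPM. Markers of smooth muscle, endothelium and leukocytes were also present, so the values belong to whole tissue, in which fewer cells of a type and less RNA per cell cannot be told apart. The 2 CF proximal libraries at 120 days differed from each other more than any other pair. Between them 15 of the 26 integrin genes differed by more than 2-fold, 12 of them lower in replicate 2, as did 50.3% of all genes with a mean count of at least 10. In the other 19 conditions 0 to 7 integrin genes and 4.46% to 23.5% of genes did so. At 120 days the lung epithelium markers summed to 18961 CPM in CF proximal replicate 2 and 5234 CPM in replicate 1. The sums were 2940 to 4970 CPM in WT and 4538 and 6902 CPM in CF distal lung. Replicate 2 also held the lowest *ITGB1* level of the 40 libraries, and whether it is the unusual one was not tested. Counts that turn on these 2 CF proximal libraries are given below with and without each.

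Levels are given as RPKM, which is the CPM after TMM scaling over all 40 libraries divided by the length of the gene's exons in kilobases, and can be compared between genes. The common beta chain *ITGB1* was by far the most abundant subunit, with a median of 199 RPKM and a range of 90.4 to 294 RPKM over the 40 libraries. It made up 62.5% to 88.1% of the summed level of the 8 beta chains. The next beta chain was *ITGB5*, a partner of alpha-v, with a median of 22.9 RPKM, followed by *ITGB4* of hemidesmosomes at 4.66, *ITGB6* at 3.06, *ITGB8* at 1.98, *ITGB2* at 1.61, *ITGB3* at 1.46 and *ITGB7* at 0.969 RPKM. The medians of *ITGB8*, *ITGB2*, *ITGB3* and *ITGB7* lay within each other's ranges over the libraries.

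Among the alpha chains the highest median was that of *ITGA5*, the fibronectin receptor chain, at 36.1 RPKM with a range of 18.7 to 75.8 RPKM. *ITGA3*, a laminin receptor chain of epithelium, had a median of 27.5 RPKM and a wider range of 4.44 to 88.9 RPKM. *ITGAV*, which pairs with several of the beta chains, had a median of 24.98 RPKM and a narrow range of 13.3 to 28.9 RPKM. Medians of 6.15 to 12.6 RPKM were found for *ITGA9*, *ITGA6*, *ITGA7*, *ITGA8*, *ITGA1* and *ITGA2*, whose ranges overlapped throughout. *ITGA4* was at 4.02, *ITGAE* at 2.63, *ITGA2B* at 2.25 and *ITGA10* at 1.22 RPKM. The lowest were *ITGAX* at 0.571, *ITGA11* at 0.440, *ITGAL* at 0.285, *ITGAM* at 0.252 and *ITGAD* at 0.0509 RPKM, with *ITGAL* at 0 in 1 library and *ITGAD* at 0 in 3. *ITGAM*, *ITGAX* and *ITGAD* are paralogs that lie side by side on chromosome 24 of Oar_v4.0 (chr24:27332111-27375513, chr24:27391531-27410251 and chr24:27437600-27464391, plus strand), and reads shared between such copies could be split in ways the sources used here do not give.

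**Figure D1:**
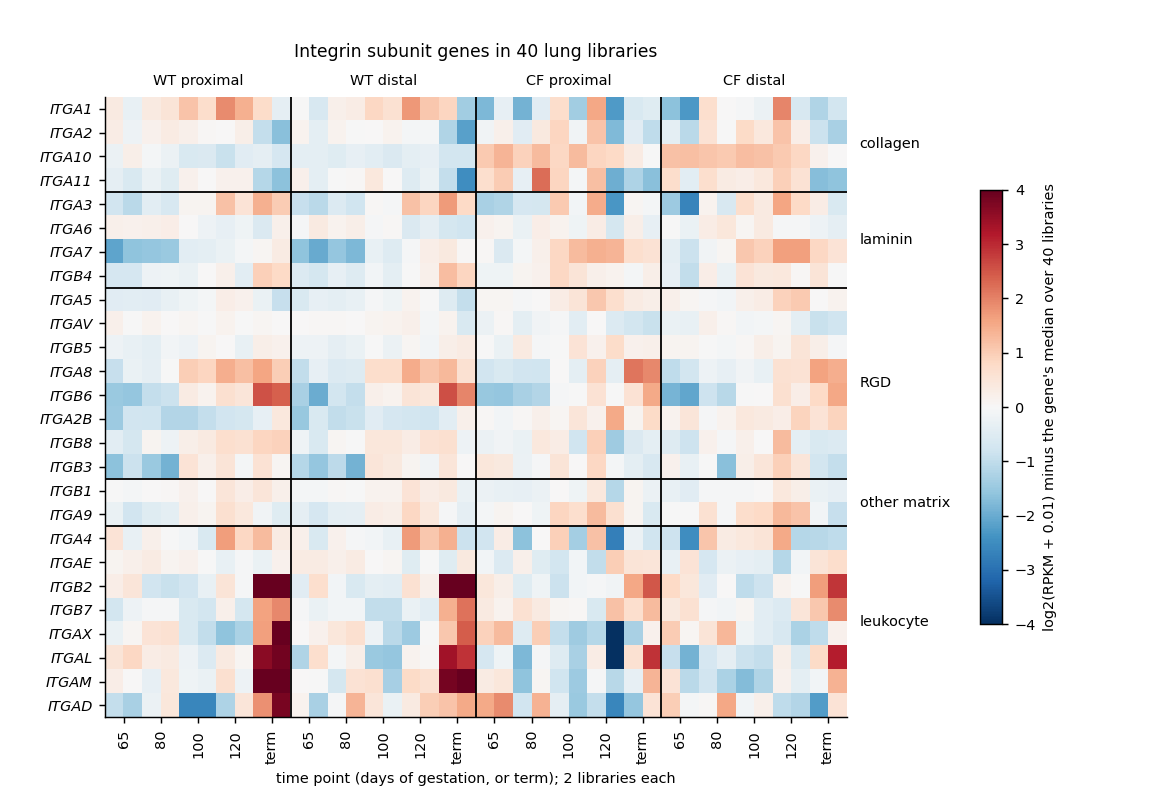
Heatmap of the 26 integrin subunit genes (rows, grouped by role) over the 40 libraries (columns, by genotype, region and time point); colour is log2(RPKM + 0.01) minus the median of the gene over the 40 libraries. The leukocyte integrins *ITGB2* and *ITGAM* stand out in the 4 WT term libraries, and *ITGA7* and *ITGA10* are above their medians in most CF libraries before term.

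The course before birth was examined first, by comparing 120 with 65 days in each genotype and region with edgeR's quasi-likelihood test and Benjamini-Hochberg adjustment over all genes, where a gene was called at an adjusted p of 0.05 or less. *ITGA7* was called higher in all 4 comparisons, and *ITGB6*, *ITGA3*, *ITGA8* and *ITGA9* in both WT regions and in CF distal lung, whereas no leukocyte integrin was called. In WT proximal lung 9 of 26 members were higher at 120 days and 0 lower, where 10.7% of all genes tested were called higher and 9.38% lower. In WT distal lung 7 members were higher (9.92% of all genes) and 1 was lower (8.24%). In CF distal lung 9 members were higher (7.1% of all genes) and 0 lower (5.01%), and in CF proximal lung 1 member was higher (1.05%) and 0 lower (0.615%). The median log2 fold change over the 26 members was 0.50 in WT proximal, 0.50 in WT distal, 0.36 in CF proximal and 0.79 in CF distal lung, beside -0.02, -0.03, 0.04 and 0.01 over all genes tested.

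*ITGB6* (chr2:148376576-148520238, plus strand) encodes the beta chain of the epithelial alpha-v beta-6 receptor, and its log2 fold change was the largest of any member in both WT regions. In WT proximal lung it was at 1.08 and 1.04 RPKM at 65 days and at 4.72 and 4.24 RPKM at 120 days. In WT distal lung it was at 1.24 and 0.770 RPKM and then at 4.35 and 4.17 RPKM. Both libraries at 120 days were above both at 65 days in each region, and the log2 fold change was 2.07 ± 0.13 (SE) in proximal (adjusted p = 3.48e-05) and 2.07 ± 0.26 in distal lung (adjusted p = 0.00137). *ITGB6* went in CF distal lung from 0.832 and 0.710 RPKM to 4.78 and 3.69 RPKM, a log2 fold change of 2.50 ± 0.30 (adjusted p = 0.00192). In CF proximal lung it went from 1.07 and 1.05 RPKM to 4.55 and 3.04 RPKM without overlap, but the log2 fold change of 1.89 missed the threshold (adjusted p = 0.0521).

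*ITGA3* (chr11:36055570-36083199, minus strand), the alpha chain of the main laminin receptor of lung epithelium, rose 3.48-fold in WT proximal and 4.06-fold in WT distal lung. It was at 16.1 and 13.2 RPKM at 65 days and at 61.9 and 40.02 RPKM at 120 days in WT proximal lung, and at 14.4 and 12.9 RPKM and then 61.6 and 50.1 RPKM in WT distal lung. The CF distal libraries went from 10.1 and 4.44 RPKM to 82.3 and 47.6 RPKM, and the log2 fold change of 3.22 ± 0.51 (adjusted p = 0.0051) was the largest of any member in that comparison. In CF proximal lung the 2 libraries at 120 days lay at 77.2 and 5.51 RPKM, on either side of the 11.2 and 11.96 RPKM at 65 days. The WT changes were 1.80 ± 0.22 (adjusted p = 0.000659) and 2.02 ± 0.26 (adjusted p = 0.00139) on the log2 scale. With both genotypes of a region in 1 fit, the WT proximal call was lost (adjusted p = 0.2). Cell type markers moved in the same interval. All 6 alveolar type 1 markers rose in WT proximal, WT distal and CF distal lung and 3 in CF proximal lung, and of the 8 lung epithelium markers 3 rose in each of the first 3 and 2 in CF proximal lung, while 1 fell in WT distal and 1 in CF distal lung. Of the 7 endothelium markers, 6 rose in WT proximal, 7 in WT distal, 7 in CF distal and 1 in CF proximal lung. Their part in the rise of *ITGB6* and *ITGA3* was not tested.

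*ITGA8* (chr13:29052978-29248677, minus strand), a receptor chain for nephronectin on mesenchymal cells, rose in both WT regions and in CF distal lung. Its levels in WT proximal lung were 4.94 and 7.74 RPKM at 65 days and 25.3 and 21.4 RPKM at 120 days, and in WT distal lung 4.68 and 7.45 RPKM and then 26.2 and 20.1 RPKM. The 120-day libraries were above the 65-day libraries throughout, with log2 fold changes of 1.87 ± 0.25 (adjusted p = 0.00106) and 1.92 ± 0.26 (adjusted p = 0.00184). The CF distal libraries went from 4.61 and 5.6045 RPKM to 14.02 and 13.9 RPKM (1.48 ± 0.19, adjusted p = 0.00241).

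*ITGA7* (chr3:163257841-163281404, plus strand) encodes the laminin receptor chain of muscle cells, and it was the only member called in all 4 comparisons of 120 with 65 days. Its log2 fold change was 1.67 ± 0.19 in WT proximal (adjusted p = 0.000439), 1.92 ± 0.21 in WT distal (adjusted p = 0.000659), 1.68 ± 0.28 in CF proximal (adjusted p = 0.0352) and 2.30 ± 0.21 in CF distal lung (adjusted p = 0.000686). Of the 7 smooth muscle markers described below, 5 rose in WT proximal, 4 in WT distal, 0 in CF proximal and 1 in CF distal lung over the same interval, 1 fell in WT distal lung, and their part in the rise of *ITGA7* was not tested. *ITGA1*, a collagen receptor chain, was called in WT proximal (1.602 ± 0.35, adjusted p = 0.0118) and in CF distal lung (3.17 ± 0.71, adjusted p = 0.0222). Its CF distal levels were 2.30 and 1.45 RPKM at 65 days and 27.6 and 4.52 RPKM at 120 days, so that the 2 later libraries were both higher but far apart. Without CF distal replicate 1 at 120 days its log2 fold change was 1.28 (adjusted p = 0.0938), and the call was also lost without either 65-day library (adjusted p up to 0.156). With both genotypes of a region in 1 fit, the WT proximal calls of *ITGA1* (adjusted p = 0.407), *ITGA5* (adjusted p = 0.0875) and *ITGB8* (adjusted p = 0.267) and the WT distal calls of *ITGB4* (adjusted p = 0.0734) and *ITGB3* (adjusted p = 0.0595) were lost.

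The remaining calls were smaller. *ITGA9*, a receptor chain for tenascin and other matrix proteins, rose in WT proximal (1.03 ± 0.17), WT distal (1.13 ± 0.17) and CF distal lung (1.29 ± 0.31), with adjusted p of 0.0032, 0.00307 and 0.0272. *ITGB3*, the beta chain of the vitronectin and platelet fibrinogen receptors, rose in WT proximal (1.47 ± 0.36, adjusted p = 0.0204) and WT distal lung (1.32 ± 0.34, adjusted p = 0.0277). *ITGA5* rose in WT proximal (0.65 ± 0.18, adjusted p = 0.0326) and CF distal lung (0.87 ± 0.17, adjusted p = 0.0114). *ITGB8*, which also activates latent TGF-beta, was called in WT proximal lung (1.19 ± 0.17, adjusted p = 0.00142), *ITGB4* in WT distal lung (0.70 ± 0.17, adjusted p = 0.0228), and *ITGA2*, a collagen receptor chain, and *ITGB1* in CF distal lung (1.53 ± 0.37 and 0.75 ± 0.20, adjusted p = 0.0295 and 0.0385). The only member that fell was *ITGA6*, a laminin receptor chain of epithelium, in WT distal lung, from 11.6 and 15.5 RPKM at 65 days to 8.04 and 9.29 RPKM at 120 days (-0.66 ± 0.15, adjusted p = 0.0178).

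Between consecutive time points before term, members were called only from 80 to 100 days in WT lung, where 1.27% of all genes in proximal and 0.75% in distal lung were called higher. *ITGB3* rose in proximal (2.05, adjusted p = 0.029) and distal lung (1.86, adjusted p = 0.0456), *ITGA7* in proximal (1.10, adjusted p = 0.0237) and distal lung (1.26, adjusted p = 0.028), and *ITGB6* in proximal lung (1.12, adjusted p = 0.00448). Both WT libraries of a region at 100 days carry 1 animal name, so these calls may rest on 1 animal at that time point. The counts of members called from 65 to 120 days depended on single libraries, and of the 10 fits that left out 1 library each *ITGA7* was called in 2 in CF proximal lung, *ITGB3* in 4 in WT distal lung, and *ITGB1* in 3, *ITGA2* in 5 and *ITGA9* in 5 in CF distal lung. Without CF proximal replicate 2 at 120 days 4 members were called in CF proximal lung and without replicate 1 there were 5, whereas 0 were called without any one of the 65-, 80- or 100-day libraries. In CF distal lung 4 were called without either library at 65 days and 5 without replicate 1 at 120 days. In WT distal lung 5 were called without replicate 2 at 65 days or without either library at 120 days, and 13 without either term library.

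**Figure D2:**
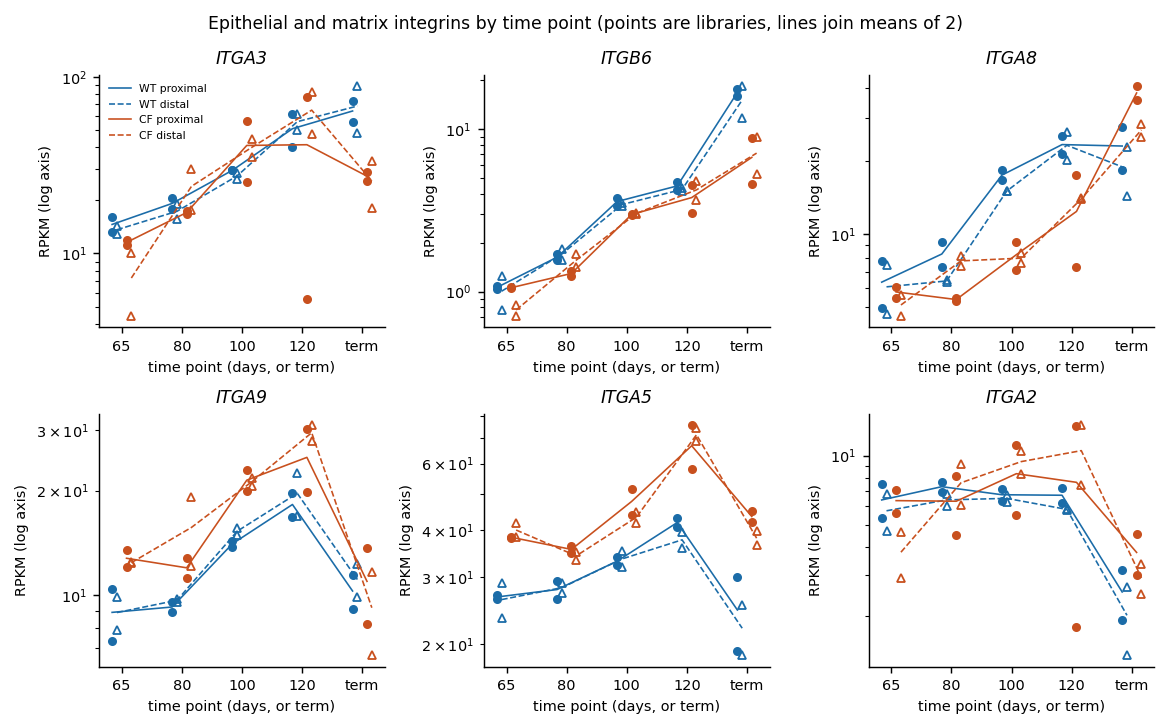
Levels of *ITGA3*, *ITGB6*, *ITGA8*, *ITGA9*, *ITGA5* and *ITGA2* (RPKM, log axis) against time point; points are single libraries and lines join the means of 2, with WT in blue and CF in orange, proximal as filled circles and solid lines and distal as open triangles and dashed lines. *ITGB6* reached 11.8 to 18.5 RPKM in WT and 4.59 to 8.94 RPKM in CF at term, and CF *ITGA3* at 120 days spread from 5.51 to 82.3 RPKM.

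The interval from 120 days to term, which spans birth, was compared next. In WT lung the leukocyte chains *ITGB2*, *ITGAM*, *ITGAX*, *ITGAL* and *ITGB7* and the epithelial chains *ITGB6* and *ITGB4* rose in both regions. *ITGA2*, *ITGA5* and *ITGA9* fell in both. In WT proximal lung 8 members rose (13.5% of all genes were called higher) and 5 fell (11.1% lower), and in WT distal lung 7 rose (13.5%) and 3 fell (12.3%). The share of members that fell in WT distal lung was close to that of all genes. In CF distal lung 4 rose (11.5%) and 10 fell (11.5%). In CF proximal lung edgeR called 0 members, where 0.0762% of all genes were called higher and 0.279% lower. There, 6 members had an unadjusted p under 0.05, as did 15.1% of all genes, and DESeq2 called 3 members and 7.09% of all genes.

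*ITGB2* (chr1:262693015-262722694, minus strand), the common beta chain of the leukocyte integrins, rose in 3 of the 4 comparisons. In WT proximal lung it was at 2.30 and 1.57 RPKM at 120 days and at 36.7 and 58.6 RPKM at term, a 24.5-fold change (log2 4.62 ± 0.32, adjusted p = 7.45e-05). The WT distal libraries were at 2.47 and 1.86 RPKM and then at 27.2 and 42.9 RPKM, a 16.1-fold change (4.01 ± 0.41, adjusted p = 0.000658). The CF distal libraries went from 1.80 and 1.596 RPKM to 5.19 and 11.7 RPKM, a 4.94-fold change (2.31 ± 0.42, adjusted p = 0.0091). In CF proximal lung the values were 1.56 and 1.46 RPKM and then 4.76 and 9.17 RPKM, with no overlap and a log2 fold change of 2.17 ± 0.47 that was not called (adjusted p = 0.107). At term *ITGB2* made up 7.76% to 17.0% of the summed beta chain level in WT lung and 1.85% to 5.58% in CF lung.

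*ITGAM*, the alpha chain of the complement receptor Mac-1 on macrophages and neutrophils, went from 0.402 and 0.217 RPKM at 120 days to 4.90 and 14.6 RPKM at term in WT proximal lung. The WT distal libraries went from 0.432 and 0.385 RPKM to 3.68 and 5.44 RPKM. Both changes were called, at 4.97 ± 0.58 (adjusted p = 0.000705) and 3.47 ± 0.66 (adjusted p = 0.00719) on the log2 scale. In CF lung it was at 0.243 and 0.111 RPKM and then 0.201 and 0.665 RPKM in proximal, and at 0.288 and 0.191 RPKM and then 0.233 and 0.675 RPKM in distal lung. The CF time points overlapped in both regions, and the distal log2 fold change of 0.90 was not called (adjusted p = 0.37).

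*ITGAX*, an alpha chain of macrophages and dendritic cells, went from 0.181 and 0.233 RPKM to 1.79 and 9.53 RPKM in WT proximal lung and from 0.201 and 0.568 RPKM to 1.23 and 3.09 RPKM in WT distal lung. Both changes were called, at 4.77 ± 0.73 (adjusted p = 0.00227) and 2.45 ± 0.62 (adjusted p = 0.0205). *ITGAX* in CF distal lung was at 0.366 and 0.234 RPKM and then at 0.278 and 0.642 RPKM, which overlapped (0.60, adjusted p = 0.439). The WT term libraries also lay apart from each other, with replicate 2 the higher for *ITGAX* in both regions.

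*ITGAL* (chr24:26671615-26713302, plus strand), the alpha chain of LFA-1 on lymphocytes and other leukocytes, rose in WT and in CF distal lung. It went from 0.371 and 0.303 RPKM to 3.57 and 4.31 RPKM in WT proximal lung (3.54 ± 0.33, adjusted p = 0.000271) and from 0.313 and 0.295 RPKM to 2.99 and 2.19 RPKM in WT distal lung (3.07 ± 0.58, adjusted p = 0.00685). The CF distal values were 0.334 and 0.182 RPKM and then 0.486 and 2.57 RPKM (2.54 ± 0.75, adjusted p = 0.0404), so the 2 term libraries lay far apart. With both genotypes of a region in 1 fit, the WT proximal call was lost (adjusted p = 0.131). The CF distal call was lost without any one of 7 of the 10 libraries. It was also lost with the replicate block (adjusted p = 0.0551). *ITGB7*, the beta chain of gut-homing lymphocytes and of the partner of E-cadherin, went from 1.11 and 0.593 RPKM to 2.99 and 3.67 RPKM in WT proximal, from 0.796 and 0.715 RPKM to 2.59 and 4.37 RPKM in WT distal and from 0.661 and 1.37 RPKM to 2.04 and 3.59 RPKM in CF distal lung. Term was above 120 days in all 3, and the log2 fold changes were 1.96 ± 0.35, 2.19 ± 0.32 and 1.47 ± 0.42 (adjusted p = 0.00458, 0.00252 and 0.0354). *ITGAD* was called in WT proximal lung (adjusted p = 0.0339), with 2 and 10 counts at 120 days and 86 and 363 counts at term, and was lost in that joint fit (adjusted p = 0.181). *ITGA4* and *ITGAE*, alpha chains of lymphocytes and other cells, were called in none of the 4 comparisons.

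Leukocyte markers outside the integrin family moved in the same interval. Of 15 listed, 14 were in the tables, and *CD163* was not. Their summed level was 118 to 346 CPM in the libraries before term of both genotypes. At term it was 1241 and 1855 CPM in WT proximal, 940 and 1625 CPM in WT distal, 596 and 983 CPM in CF proximal and 648 and 1114 CPM in CF distal lung. From 120 days to term 9 of the 14 rose in WT proximal, 9 in WT distal, 13 in CF distal and 0 in CF proximal lung, and none fell. *MARCO*, a scavenger receptor of alveolar macrophages, was at 0 in 20 libraries before term and at no more than 0.241 CPM in the others, and at term it was at 199 to 495 CPM in WT and 6.73 to 13.5 CPM in CF. *MS4A1* was at 0 in 2 libraries and *CSF3R* in 1. The part of leukocyte content in the changes of these integrins was not tested.

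**Figure D3:**
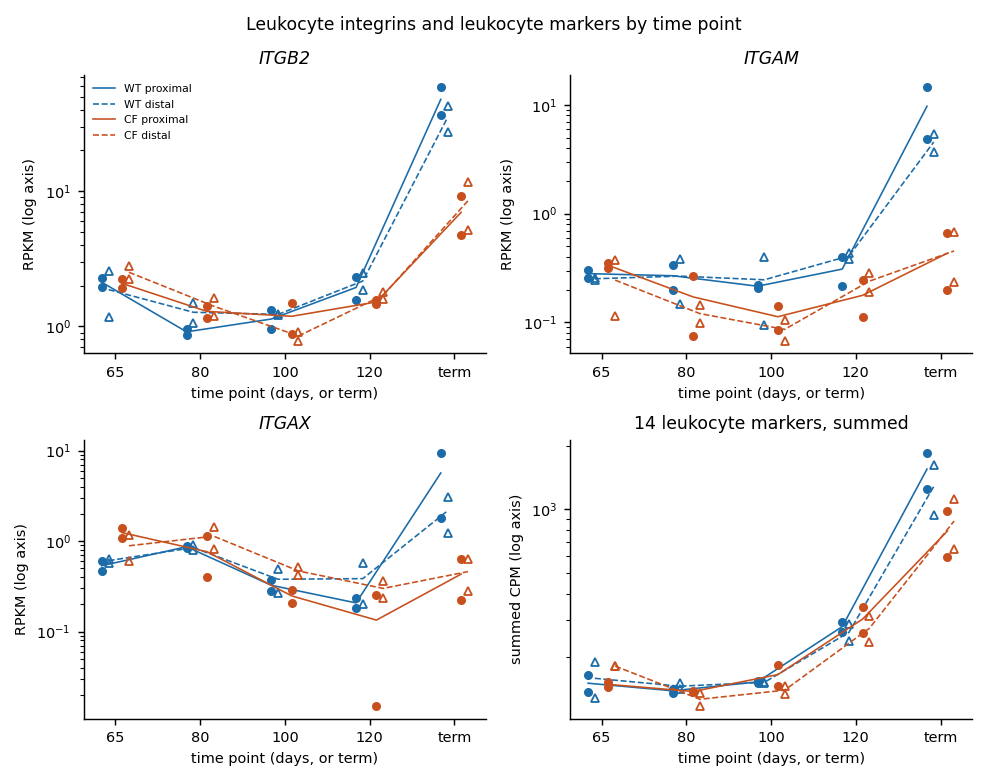
Levels of *ITGB2*, *ITGAM* and *ITGAX* (RPKM) and the summed level of 14 leukocyte markers (CPM), all on log axes, against time point; points are single libraries and lines join means of 2, with WT in blue, CF in orange, proximal as filled circles and distal as open triangles. At term *ITGB2* lay at 27.2 to 58.6 RPKM in WT and 4.76 to 11.7 RPKM in CF, and *ITGAM* at 3.68 to 14.6 RPKM in WT and 0.201 to 0.675 RPKM in CF.

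Among the epithelial and matrix integrins, *ITGB6* rose again from 120 days to term in WT lung, to 17.7 and 15.997 RPKM in proximal and to 18.5 and 11.8 RPKM in distal lung (1.91 ± 0.12, adjusted p = 6.39e-05, and 1.81 ± 0.25, adjusted p = 0.00229). *ITGB4*, the hemidesmosome chain, rose in WT proximal (0.95 ± 0.20, adjusted p = 0.00859) and WT distal lung (0.96 ± 0.17, adjusted p = 0.0053). *ITGB6* in CF distal lung was at 5.33 and 8.94 RPKM at term and its log2 fold change of 0.74 was not called (adjusted p = 0.0868). The matrix member that rose there was *ITGA8*, from 14.02 and 13.9 RPKM to 28.4 and 25.1 RPKM, with no overlap (0.93 ± 0.19, adjusted p = 0.0121). Over the same interval 7 of the 8 lung epithelium markers rose in WT proximal, 5 in WT distal and 5 in CF distal lung, and of the 6 alveolar type 1 markers 5, 3 and 2 rose, with 0 of either list called in CF proximal lung, and their part in the rise of *ITGB6* and *ITGB4* was not tested.

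The collagen receptor chains *ITGA1* and *ITGA11* were called lower in WT proximal lung and not in WT distal lung. *ITGA2* went from 6.24 and 7.19 RPKM at 120 days to 3.16 and 1.92 RPKM in WT proximal lung (-1.41 ± 0.23, adjusted p = 0.00309). It went from 5.79 and 5.86 RPKM to 2.67 and 1.35 RPKM in WT distal (-1.56 ± 0.29, adjusted p = 0.00645) and from 13.6 and 7.47 RPKM to 3.36 and 2.50 RPKM in CF distal lung (-1.86 ± 0.37, adjusted p = 0.0123). In all 3 both term libraries were below both 120-day libraries. *ITGA9* fell in the same 3 comparisons, from 19.7 and 16.8 RPKM to 11.4 and 9.09 RPKM in WT proximal, from 22.4 and 16.9 RPKM to 12.3 and 9.87 RPKM in WT distal and from 30.9 and 27.9 RPKM to 11.7 and 6.70 RPKM in CF distal lung. Its log2 fold changes were -0.84 ± 0.17, -0.85 ± 0.17 and -1.69 ± 0.31 (adjusted p = 0.00792, 0.00902 and 0.00921).

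*ITGA5* fell in the same 3 comparisons as well, by -0.77 ± 0.18 in WT proximal, -0.80 ± 0.16 in WT distal and -0.92 ± 0.17 in CF distal lung (adjusted p = 0.0134, 0.00885 and 0.00921), and in WT distal lung from 39.5 and 36.0 RPKM to 25.3 and 18.7 RPKM. Of the 7 endothelium markers 2, 3 and 1 fell in these comparisons and 0 rose. Their part in the fall of *ITGA5* was not tested. *ITGA11*, a chain of the fibrillar collagen receptor of fibroblasts, fell from 0.502 and 0.500 RPKM to 0.194 and 0.135 RPKM in WT proximal lung (-1.61 ± 0.36, adjusted p = 0.0124). It fell in CF distal lung from 0.869 and 0.656 RPKM to 0.129 and 0.138 RPKM (-2.52 ± 0.45, adjusted p = 0.00826). *ITGA1* was called lower in WT proximal (26.3 and 19.2 RPKM, then 11.9 and 5.52 RPKM, -1.40 ± 0.34, adjusted p = 0.0181) and CF distal lung (27.6 and 4.52 RPKM, then 3.09 and 4.30 RPKM, -2.16 ± 0.69, adjusted p = 0.0496). The last of these was called in 1 of the 10 fits that left out 1 library each and was lost with the replicate block (adjusted p = 0.0643). Its log2 fold change was -0.29 without CF distal replicate 1 at 120 days (adjusted p = 0.647). With both genotypes of a region in 1 fit, the WT proximal calls of *ITGA2* (adjusted p = 0.245), *ITGA9* (adjusted p = 0.0821), *ITGA11* (adjusted p = 0.332) and *ITGA1* (adjusted p = 0.451) were lost, and that of *ITGA5* was kept (adjusted p = 0.0423).

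A further 5 members were called lower in CF distal lung alone among the 4 comparisons. These were *ITGB3* (-1.61 ± 0.50, adjusted p = 0.048), *ITGA7* (-0.96 ± 0.21, adjusted p = 0.015), *ITGA10*, a collagen receptor chain of chondrocytes and fibroblasts (-0.86 ± 0.23, adjusted p = 0.028), *ITGAV* (-0.73 ± 0.20, adjusted p = 0.0344) and *ITGB1* (-0.66 ± 0.19, adjusted p = 0.0398). Over this interval 5 of the 7 smooth muscle markers fell and 0 rose in CF distal lung, while 4 rose and 1 fell in WT distal lung. Their part in these changes was not tested. Of the 10 fits that left out 1 library each, *ITGB3* was called in 3, *ITGA10* in 4, *ITGAV* in 3, *ITGB1* in 1 and *ITGB7* in 4 in CF distal lung. Single libraries moved these counts too. In CF distal lung 5 members were called in place of 14 without replicate 1 at 120 days or without replicate 2 at term, 7 without either 100-day library and 8 without either 80-day library. In WT distal lung 4 were called in place of 10 without replicate 1 at 120 days, in WT proximal lung 8 in place of 13 without replicate 1 at 120 days, and in CF proximal lung 4 in place of 0 without replicate 1 at 120 days, whereas 0 were called without replicate 2.

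CF was then compared with WT over the time points before term, as the mean of the differences at 65, 80, 100 and 120 days within a region. *ITGA7*, *ITGA10* and *ITGA2B* were 2.23 to 2.95 times higher in CF lung in both regions, and no leukocyte integrin was called. In proximal lung 8 members were higher in CF (13.8% of all genes were called higher) and 1 was lower (6.77% lower), and in distal lung 7 were higher (18.6%) and 1 was lower (13.6%). Under the limit used in the study, where the adjusted p is 0.001 at most and the log2 fold change 0.58 or more in size, 3 members were higher in each region, *ITGA7*, *ITGA10* and *ITGA2B*. At that limit 2.13% of all genes were higher in proximal and 5.21% in distal lung. The median log2 fold change was 0.02 over the members and 0.07 over all genes in proximal lung, and 0.10 and 0.03 in distal lung.

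The study named *ITGA7* for this contrast in proximal lung at 80 days on these samples, so its direction there is not independent evidence. In proximal lung *ITGA7* was at 2.15 and 3.03 RPKM in WT and 9.61 and 6.29 RPKM in CF at 65 days, and at 3.17 and 3.33 RPKM in WT and 8.80 and 10.8 RPKM in CF at 80 days. It was at 6.89 and 7.18 RPKM in WT and 16.7 and 22.3 RPKM in CF at 100 days, at 7.76 and 8.77 RPKM in WT and 25.2 and 24.0 RPKM in CF at 120 days, and at 9.85 and 11.6 RPKM in WT and 14.95 and 14.03 RPKM in CF at term. Both CF libraries were above both WT libraries at each of the 5 time points, and within both genotypes the level climbed to 120 days.

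In distal lung *ITGA7* was at 3.02 and 2.28 RPKM in WT and 7.14 and 5.08 RPKM in CF at 65 days, at 3.20 and 2.68 RPKM and 8.36 and 9.86 RPKM at 80 days, and at 7.58 and 6.55 RPKM and 19.6 and 17.6 RPKM at 100 days. At 120 days it was at 9.04 and 11.3 RPKM in WT and 29.3 and 29.2 RPKM in CF, and at term at 12.1 and 9.67 RPKM in WT and 16.6 and 13.6 RPKM in CF. Again the genotypes did not overlap at any time point. Over the time points before term the log2 fold change of CF against WT was 1.56 ± 0.12 in proximal (2.95-fold, adjusted p = 1.4e-05) and 1.44 ± 0.10 in distal lung (2.71-fold, adjusted p = 3.36e-07). By single time point it was 1.62, 1.59, 1.47 and 1.57 from 65 to 120 days in proximal lung (adjusted p = 0.0215, 0.0326, 0.0295 and 0.0168), where 0.113%, 0.0737%, 0.295% and 1.1% of all genes were called higher, and 1.21, 1.63, 1.38 and 1.54 in distal lung (adjusted p = 0.00412, 0.000787, 0.0019 and 0.00118), where 4.36%, 4.11%, 3.96% and 3.3% were. At term it was 0.43 ± 0.24 in proximal (adjusted p = 0.337) and 0.50 ± 0.20 in distal lung (adjusted p = 0.1), and was not called.

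*ITGA10* (chr1:98111247-98128616, minus strand) separated the genotypes before term without overlap. In proximal lung its lowest, median and highest levels were 0.662, 0.962 and 1.45 RPKM in the 8 WT libraries and 2.15, 2.44 and 3.14 RPKM in the 8 CF libraries. In distal lung they were 0.810, 0.928 and 0.979 RPKM in WT and 2.19, 2.71 and 2.87 RPKM in CF. The log2 fold change was 1.41 ± 0.15 in proximal (2.65-fold, adjusted p = 7.45e-05) and 1.52 ± 0.10 in distal lung (2.88-fold, adjusted p = 2.47e-07).

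*ITGA2B* (chr11:43531316-43547535, minus strand), the alpha chain of the platelet fibrinogen receptor, did so as well. Its lowest, median and highest levels in proximal lung were 0.808, 1.22 and 1.37 RPKM in WT and 2.06, 2.46 and 6.45 RPKM in CF. In distal lung they were 0.782, 1.32 and 1.64 RPKM in WT and 2.19, 2.81 and 4.15 RPKM in CF. The log2 fold change was 1.31 ± 0.21 in proximal (2.48-fold, adjusted p = 0.000991) and 1.16 ± 0.16 in distal lung (2.23-fold, adjusted p = 0.000103). Calls for *ITGA7*, *ITGA10* and *ITGA2B* were kept in both regions without any one library.

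*ITGB3*, the partner of *ITGA2B* and of *ITGAV*, was higher in CF, by 0.82 ± 0.19 in proximal (adjusted p = 0.00924) and 0.69 ± 0.22 in distal lung (adjusted p = 0.0262) on the log2 scale. Its levels overlapped between the genotypes, with a lowest, median and highest of 0.389, 1.09 and 2.11 RPKM in WT and 1.23, 1.69 and 2.59 RPKM in CF in proximal lung. In distal lung they were 0.389, 1.01 and 2.04 RPKM in WT and 0.455, 1.67 and 2.84 RPKM in CF. Smaller differences were called for *ITGA5* (0.52 ± 0.10 and 0.54 ± 0.08, adjusted p = 0.00387 and 0.000203), *ITGA9* (0.49 ± 0.13 and 0.56 ± 0.13, adjusted p = 0.0182 and 0.00373) and *ITGB5* (0.37 ± 0.12 and 0.29 ± 0.08, adjusted p = 0.0458 and 0.0126), in proximal and distal lung in turn. *ITGB4* was called in proximal lung (0.47 ± 0.11, adjusted p = 0.00738). The proximal call of *ITGB5* was kept in 4 of the 20 fits that left out 1 library each and under 2 of 9 other settings (adjusted p up to 0.207), its distal call was lost with the length trend removed (adjusted p = 0.139), and the distal call of *ITGB3* was kept in 11 of the 20.

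*ITGA8* was the only member called lower in CF before term. Its lowest, median and highest levels were 4.94, 12.96 and 25.3 RPKM in WT and 5.28, 6.61 and 17.5 RPKM in CF in proximal lung, and 4.68, 11.2 and 26.2 RPKM in WT and 4.61, 7.85 and 14.02 RPKM in CF in distal lung. The ranges overlapped, and the log2 fold change was -0.69 ± 0.17 (adjusted p = 0.0118) and -0.41 ± 0.12 (adjusted p = 0.0163). This call was lost in both regions when the 120-day libraries were left out of the mean, a choice made after seeing the data (adjusted p = 0.0553 and 0.117). In proximal lung 10 members were called without CF replicate 2 at 120 days and 17 without CF replicate 1 at 120 days, in place of 9.

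Smooth muscle markers moved with this contrast. Of 8 listed, 7 were in the tables and none was at 0 in any library, and *LMOD1* was not in the tables. Their summed level before term was 314 to 795 CPM in WT and 798 to 1550 CPM in CF proximal lung, and 324 to 838 CPM in WT and 669 to 1598 CPM in CF distal lung. Before term 6 of the 7 were higher in CF in proximal and 5 in distal lung, *MYH11* by 1.17 ± 0.11 and 1.22 ± 0.12 on the log2 scale (adjusted p = 2.36e-05 and 5.68e-06). Platelet markers, of which 5 of 8 were in the tables, summed to 6.46 to 29.6 CPM over all libraries, with *GP6* at 0 in 21, and of the 4 tested 1 was lower and 0 higher in CF before term in each region. Cartilage markers, 4 of 7 in the tables, summed to 3.96 to 466 CPM before term, and 2 of the 4 were higher in CF in proximal and 0 in distal lung. Skeletal muscle markers, 4 of 6 in the tables, summed before term to 0.221 to 4.53 CPM in WT and 0.257 to 17.97 CPM in CF proximal lung. Single CF proximal libraries at 65, 80 and 100 days held 17.97, 8.71 and 6.57 CPM. In distal lung the sums were 0.347 to 1.32 CPM in WT and 0.224 to 4.82 CPM in CF. At most 1 marker was at 0 in both libraries of a condition. Of the 4 tested 1 was higher in CF in proximal and 0 in distal lung. The part of smooth muscle, skeletal muscle, platelet and cartilage cells in the differences of *ITGA7*, *ITGA2B* and *ITGA10* was not tested. Exons of *ITGA7* share 53 bases with *METTL7B* on the opposite strand, those of *ITGB3* share 51 bases with *LOC106991434* and those of *ITGAE* share 297 bases with *GSG2*, and the strand setting of the counting is not given in the sources used here.

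**Figure D4:**
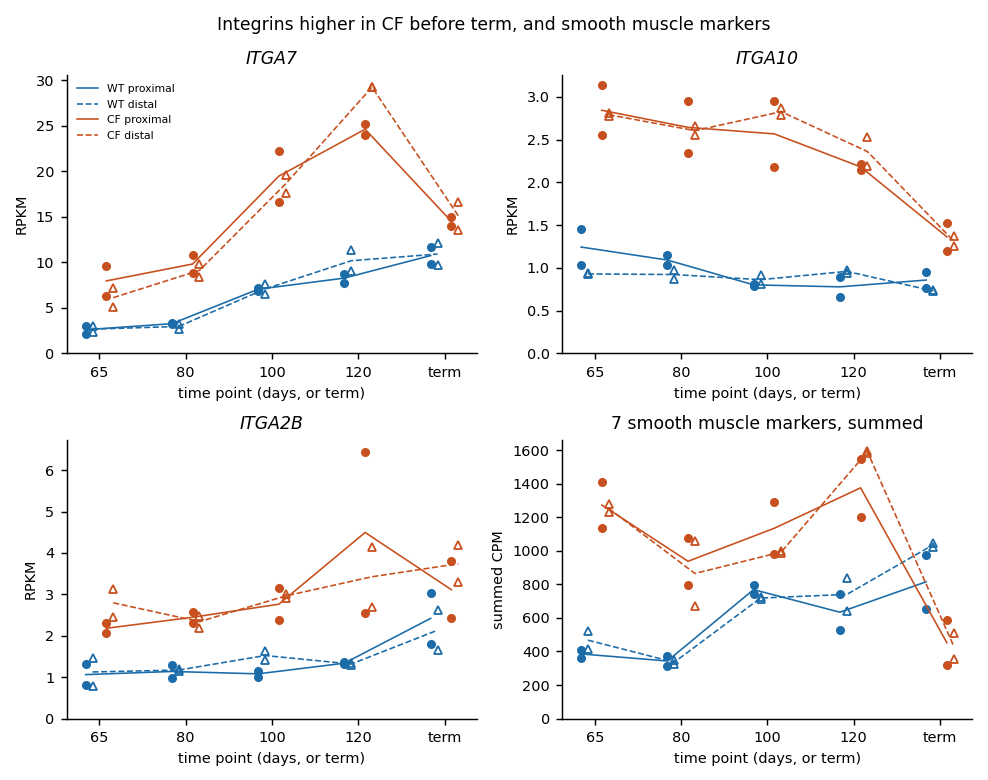
Levels of *ITGA7*, *ITGA10* and *ITGA2B* (RPKM) and the summed level of 7 smooth muscle markers (CPM), on linear axes, against time point; points are single libraries and lines join means of 2, with WT in blue, CF in orange, proximal as filled circles and distal as open triangles. CF *ITGA7* reached 24.0 to 29.3 RPKM at 120 days and 13.6 to 16.6 RPKM at term, and the marker sum in CF went from 669 to 1598 CPM before term to 319 to 586 CPM at term.

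At term the myeloid integrins *ITGAM*, *ITGAX* and *ITGB2*, the epithelial chain *ITGB6* and its partner *ITGAV* were called lower in CF lung in both regions, and *ITGA5* was called higher, as it was before term. The proximal calls of *ITGAX* and *ITGA5* and both calls of *ITGAV* were lost in at least 10 of the 20 fits that left out 1 library each. In proximal lung 1 member was higher in CF (2.6% of all genes) and 6 were lower (3.49%), and in distal lung 2 were higher (7.65%) and 6 were lower (7.57%). The counts of members higher in CF were close to the shares over all genes. The median log2 fold change was -0.78 over the members and -0.03 over all genes in proximal lung, and -0.50 and 0 in distal lung.

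*ITGAM* showed the largest difference. At term it was at 4.90 and 14.6 RPKM in WT and 0.201 and 0.665 RPKM in CF proximal lung, and at 3.68 and 5.44 RPKM in WT and 0.233 and 0.675 RPKM in CF distal lung. CF was 22.5-fold lower in proximal (-4.49 ± 0.79, adjusted p = 0.00552) and 9.88-fold lower in distal lung (-3.30 ± 0.73, adjusted p = 0.00833). These sizes turned on single term libraries. The proximal log2 fold change was -3.50 without WT replicate 2 and -5.62 without CF replicate 2, and the distal one was -2.77 without CF replicate 1 and -4.29 without CF replicate 2. *ITGAX* was at 1.79 and 9.53 RPKM in WT and 0.224 and 0.639 RPKM in CF proximal lung, and at 1.23 and 3.09 RPKM in WT and 0.278 and 0.642 RPKM in CF distal lung (-3.71 ± 1.01, adjusted p = 0.0451, and -2.21 ± 0.61, adjusted p = 0.0247). Without WT replicate 2 at term these were -2.05 and -1.42, and without CF replicate 2 they were -4.68 and -2.96. *ITGB2*, with the term levels given above, was 6.84-fold lower in CF proximal (-2.77 ± 0.39, adjusted p = 0.00133) and 4.07-fold lower in CF distal lung (-2.02 ± 0.42, adjusted p = 0.00591). Without 1 library its log2 fold change ranged from -3.35 to -2.39 and from -2.76 to -1.59, in both regions largest in size without CF replicate 2 at term. For these 3 genes no CF term library reached the lowest WT term library of its region. The other 5 leukocyte integrins were not called in either region, and *ITGAL*, for example, was at 3.57 and 4.31 RPKM in WT and 0.436 and 2.17 RPKM in CF proximal lung.

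The leukocyte markers did not all share this difference. Of the 14 tested, 4 were lower in CF in proximal lung, *MARCO* (-5.33), *CD53* (-1.75), *CD68* (-1.49) and *CSF1R* (-1.25 on the log2 scale), and 2 in distal lung, *MARCO* (-4.72) and *CSF1R* (-1.01). The T cell marker *CD3E* was at 7.81 to 12.6 CPM in WT and 7.87 to 33.0 CPM in CF, and the B cell marker *MS4A1* at 0.335 to 0.532 CPM in WT and 0.427 to 1.15 CPM in CF, and neither was called. *PTPRC*, a marker of all leukocytes, was at 45.2 to 113 CPM in WT and 17.0 to 60.8 CPM in CF and was not called. The part of macrophage content in the lower *ITGAM*, *ITGAX* and *ITGB2* was not tested.

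*ITGB6* at term was at 17.7 and 15.997 RPKM in WT and 4.59 and 8.84 RPKM in CF proximal lung, and at 18.5 and 11.8 RPKM in WT and 5.33 and 8.94 RPKM in CF distal lung. CF was lower in each, by -1.33 ± 0.27 (adjusted p = 0.0125) and -1.06 ± 0.27 (adjusted p = 0.0179). *ITGAV*, its partner, was at 26.3 and 25.2 RPKM in WT and 15.2 and 13.4 RPKM in CF proximal lung, and at 27.4 and 16.4 RPKM in WT and 13.3 and 14.2 RPKM in CF distal lung, and was called lower in both (-0.85 ± 0.22, adjusted p = 0.0334, and -0.64 ± 0.21, adjusted p = 0.0497). *ITGB4* was called lower in CF proximal (-0.79 ± 0.21, adjusted p = 0.0452) and *ITGA3* in CF distal lung, at 88.9 and 48.0 RPKM in WT and 33.5 and 18.1 RPKM in CF (-1.38 ± 0.41, adjusted p = 0.036). Markers of alveolar type 1 cells, of which 6 of 6 were in the tables and none was at 0, summed to 4604 to 5498 CPM in WT and 1594 to 3131 CPM in CF at term. Of the 6, 1 was called lower in CF in proximal and 2 in distal lung, and of the 8 lung epithelium markers 0 and 1 were, and their part in these differences was not tested.

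*ITGA5* was higher in CF at term, with 30.05 and 19.2 RPKM in WT and 44.9 and 42.0 RPKM in CF proximal lung and 25.3 and 18.7 RPKM in WT and 36.5 and 39.7 RPKM in CF distal lung. The genotypes did not overlap, and the log2 fold change was 0.82 ± 0.21 in proximal (adjusted p = 0.0334) and 0.82 ± 0.16 in distal lung (adjusted p = 0.0049). All 7 endothelium markers were in the tables, none at 0 in both libraries of a condition. At term 0 of them were called in proximal lung, and 3 were higher and 0 lower in CF in distal lung. They summed to 1278 to 1995 CPM in WT and 1939 to 2395 CPM in CF. Their part in the difference of *ITGA5* was not tested. *ITGA10* was also higher in CF distal lung, at 0.724 and 0.735 RPKM in WT and 1.38 and 1.25 RPKM in CF (0.88 ± 0.20, adjusted p = 0.00922). In proximal lung its log2 fold change of 0.67 was not called (adjusted p = 0.214).

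The number of proximal calls at term turned on single libraries. In proximal lung 1 member was called in place of 7 without WT replicate 2 at term. Without either CF term library, or either WT library at 80 or 100 days there were 3, and without WT replicate 1 at term, either WT library at 65 or 120 days or either CF library at 65 days there were 4. Without either CF library at 120 days there were 9. In distal lung 5 were called in place of 8 without WT replicate 1 at term. *ITGB2* was called in both regions without any one library, and *ITGAM* in distal lung without any one and in proximal lung without any one but WT replicate 2 at term (adjusted p = 0.0563). Of the 20 fits without 1 library, proximal *ITGAX* was called in 5 (adjusted p up to 0.43), proximal *ITGA5* in 7 (up to 0.325) and proximal *ITGB4* in 4 (up to 0.228). *ITGAV* was called in 10 in proximal (adjusted p up to 0.187) and in 9 in distal lung, where its log2 fold change was -0.26 without WT replicate 1 at term (adjusted p = 0.44). The others were called in 18 to 20 of the 20. With the WT day 100 libraries of a region, which share an animal label, summed to 1 sample, the proximal calls of *ITGA5* (adjusted p = 0.0521), *ITGAV* (adjusted p = 0.0514), *ITGAX* (adjusted p = 0.0636) and *ITGB4* (adjusted p = 0.0581) and the distal call of *ITGAV* (adjusted p = 0.0587) were lost. The distal call of *ITGAX* was lost on libraries thinned to equal depth (adjusted p = 0.0515), and its proximal call with the replicate block (adjusted p = 0.0576). The distal call of *ITGAV* was lost with RLE in place of TMM scaling (adjusted p = 0.0508). That of *ITGB4* in proximal lung was also lost with RLE, with the block, with no filter and with the length trend removed (adjusted p up to 0.0896).

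**Figure D5:**
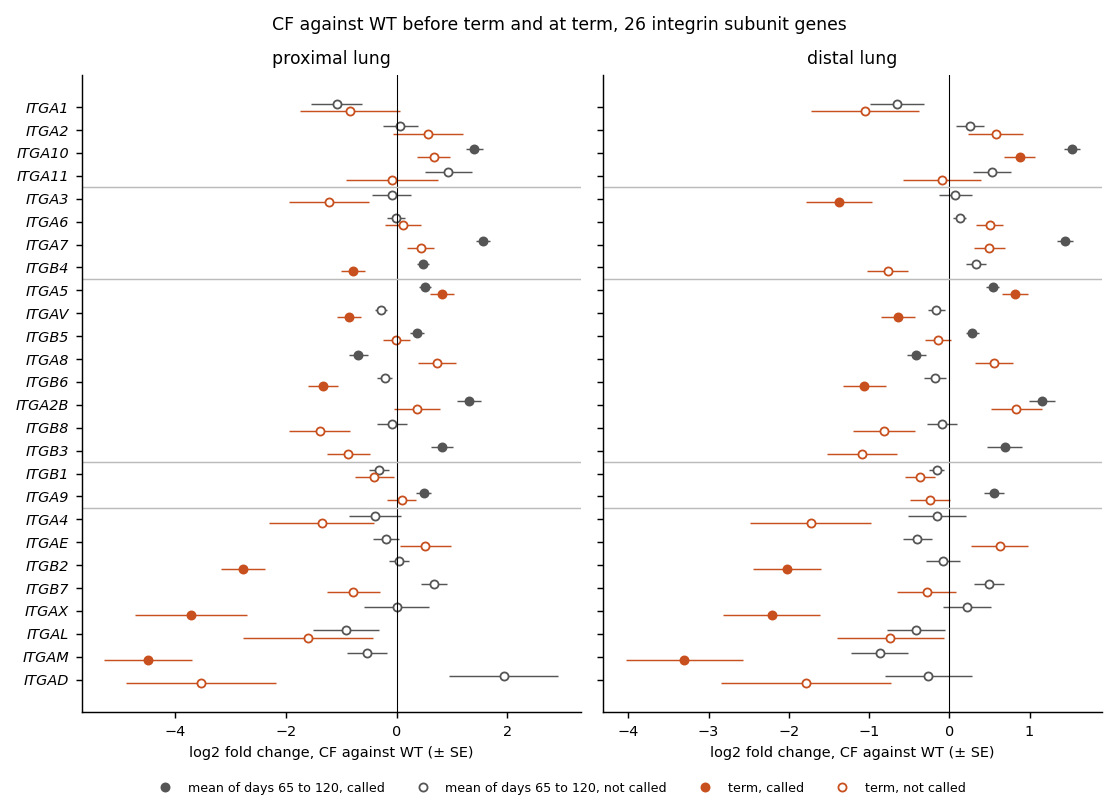
Log2 fold change of CF against WT with its SE for the 26 integrin subunit genes in proximal (left) and distal lung (right); grey circles are the mean of days 65 to 120 and orange circles are term, filled where the adjusted p was 0.05 or less, and grey lines separate the roles. Before term *ITGA7*, *ITGA10* and *ITGA2B* lie between 1.16 and 1.56, and at term *ITGAM* lies at -4.49 and -3.30.

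The change from 120 days to term was compared between the genotypes directly. In distal lung 1 member was called with a more positive change in CF (4.21% of all genes) and 1 with a more negative change (5.1%), and 11 members had an unadjusted p under 0.05, as did 25.9% of all genes. In proximal lung 0 were called more positive (0.585%) and 1 more negative (1.19%), with 9 members at an unadjusted p under 0.05 and 15.7% of all genes. *ITGA7* changed by 0.08 in WT and -0.96 in CF distal lung on the log2 scale, a difference of -1.04 ± 0.28 (adjusted p = 0.034), and in proximal lung the difference was -1.14 (adjusted p = 0.109). The distal call was lost with the WT day 100 libraries, which share an animal label, summed to 1 sample (adjusted p = 0.0563). *ITGA8*, which rose in CF distal lung, differed by 1.28 ± 0.34 (adjusted p = 0.0292). *ITGB2* differed by -2.42 ± 0.53 in proximal lung (adjusted p = 0.0347) and by -1.69 in distal lung, where it was not called (adjusted p = 0.0832). Smooth muscle markers moved with *ITGA7*: 5 of 7 had a more negative change in CF in distal and 3 in proximal lung, and at term their sum was 656 to 1046 CPM in WT and 319 to 586 CPM in CF. Their part in the result was not tested.

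These counts also turned on single libraries. In distal lung 0 members were called without CF or WT replicate 1 at 120 days, 1 without any one of 8 others, 4 without CF replicate 2 at 120 days and 5 without CF replicate 1 at term. In proximal lung 10 were called without CF replicate 1 at 120 days, 3 without CF replicate 2 at 120 days, 2 without CF replicate 2 at term, and 0 without either CF library at 65 days, either WT library at 65, 80 or 120 days or WT replicate 2 at term.

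Proximal and distal lung hardly separated, over all genes as for the integrins. Over the 5 time points edgeR called 0 of 26 members in WT, where 0.016% of all genes were called, and 0 in CF, where 0.00497% were. The counts of members were thus no different from the shares over all genes. In WT 2 members and in CF 0 had an unadjusted p under 0.05, as did 3.18% and 3.13% of all genes, and DESeq2 called 0 in both. *ITGA7* differed by -0.04 ± 0.09 in WT and 0.05 ± 0.10 in CF on the log2 scale, proximal against distal. Since both regions came from the same animals, each proximal and distal pair with the same number was also fitted as a block, and again 0 were called. The 2 WT pairs at 100 days, which share an animal name, were kept apart in that fit.

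The other genes of the pathway were followed as a list of 46 integrin ligands, 44 of them in the tables, and a list of 42 activators, adaptors and signalling proteins, 40 in the tables. From 65 to 120 days 15 ligands rose and 3 fell in WT proximal lung, 16 and 3 in WT distal, 3 and 1 in CF proximal and 14 and 4 in CF distal lung, of 42 tested in each. For all genes 10.7% rose and 9.38% fell in WT proximal, 9.92% and 8.24% in WT distal, 1.05% and 0.615% in CF proximal and 7.1% and 5.01% in CF distal lung. *ICAM1*, the counter-receptor of LFA-1 and Mac-1, rose by 2.76 ± 0.13 in WT proximal, 2.86 ± 0.16 in WT distal and 3.24 ± 0.41 in CF distal lung on the log2 scale (adjusted p = 8.17e-06, 3.41e-05 and 0.00227). *LAMB3*, a chain of laminin-332, rose by 2.598 ± 0.31, 2.96 ± 0.28, 2.996 ± 0.45 and 2.98 ± 0.20 in WT proximal, WT distal, CF proximal and CF distal lung (adjusted p = 0.000622, 0.000439, 0.0261 and 0.000213). *SPP1*, osteopontin, fell in the same 4 comparisons, by -3.50 ± 0.70, -5.27 ± 0.79, -4.71 ± 0.88 and -5.16 ± 0.55 (adjusted p = 0.00804, 0.00277, 0.0446 and 0.00118). Of the adaptors 13 rose and 0 fell in WT proximal, 12 and 1 in WT distal, 0 and 0 in CF proximal and 12 and 0 in CF distal lung, of 40 tested in each.

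From 120 days to term 7 ligands rose and 13 fell in WT proximal, 8 and 11 in WT distal, 0 and 0 in CF proximal and 2 and 8 in CF distal lung, of 42 tested. For all genes the shares were 13.5% and 11.1%, 13.5% and 12.3%, 0.0762% and 0.279%, and 11.5% and 11.5% in the same order, so the counts of ligands that rose in WT lung and of adaptors that moved in CF distal lung, given below, were not far from those over all genes. *LAMA1*, the embryonic laminin alpha chain, fell by -4.30 ± 0.60, -4.17 ± 0.37 and -3.73 ± 0.50 in WT proximal, WT distal and CF distal lung (adjusted p = 0.00144, 0.000402 and 0.00329). *ICAM3*, a leukocyte adhesion molecule, rose by 2.80 ± 0.47, 2.45 ± 0.42 and 1.18 ± 0.35 (adjusted p = 0.0033, 0.00452 and 0.0425). Of the adaptors 10 rose and 1 fell in WT proximal, 11 and 2 in WT distal, 0 and 0 in CF proximal and 6 and 6 in CF distal lung. *PARVG*, the parvin of blood cells, rose by 3.65 ± 0.57, 3.03 ± 0.56 and 2.72 ± 0.52 in the 3 comparisons with calls (adjusted p = 0.00249, 0.0064 and 0.0107).

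In CF against WT before term 9 ligands were higher and 0 lower in proximal and 11 and 3 in distal lung, and 9 adaptors were higher and 3 lower in proximal and 14 and 4 in distal lung. Of all genes 13.8% were higher and 6.77% lower in proximal and 18.6% and 13.6% in distal lung, beside 42 and 43 ligands and 40 adaptors tested. *LAMC3*, a laminin gamma chain, was higher by 1.39 ± 0.22 and 1.33 ± 0.20 (adjusted p = 0.000789 and 0.000186). *ITGB1BP2*, melusin, a beta-1 integrin partner of striated muscle, was higher by 2.18 ± 0.54 and 1.15 ± 0.33 (adjusted p = 0.0124 and 0.0156). The part of the skeletal muscle markers given above in this difference was not tested. At term 4 ligands were higher and 1 lower in proximal and 4 and 7 in distal lung, where 2.6% and 3.49% of all genes were called in proximal and 7.65% and 7.57% in distal lung, so that the 4 higher ligands in distal lung were close to the share over all genes. Among the ligands were *LAMB1* at 1.46 ± 0.24 and 1.28 ± 0.21 (adjusted p = 0.00344 and 0.00129) and *LAMA4*, a laminin chain of vessels and muscle, at 1.37 ± 0.30 and 1.17 ± 0.17 (adjusted p = 0.0164 and 0.000627). *THBS1*, thrombospondin 1, was lower in distal lung by -2.41 ± 0.48 (adjusted p = 0.00491). Of the adaptors 1 was higher and 4 lower in proximal and 4 and 4 in distal lung at term, and *SYK*, a kinase downstream of beta-2 integrins, was lower by -2.74 ± 0.57 and -1.65 ± 0.40 (adjusted p = 0.0131 and 0.0145). In the change from 120 days to term, where 0.585% of all genes were more positive and 1.19% more negative in CF in proximal and 4.21% and 5.1% in distal lung, *FLNA*, the actin crosslinker filamin A, was more negative in CF by -1.55 ± 0.32 in proximal and -1.94 ± 0.36 in distal lung (adjusted p = 0.0262 and 0.006), among 0 ligands and 1 adaptor called in proximal and 7 ligands and 4 adaptors in distal lung. Between proximal and distal lung no gene of either list was called in WT or CF.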

How the data were processed

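Raw read counts per gene were deposited by the authors for 40 libraries. Per the labels and the study's methods, oligo dT-primed paired-end libraries were aligned with STAR to Oar_v4.0 and counted with featureCounts 1.6.3. The STAR version is 2.6 in the submitters' processing notes and a later one in the paper. The strand setting is not given in the sources used here. These deposited counts were tested here with edgeR 4.0.16 in R 4.3.3: filterByExpr (count minimum 10, total 15), TMM scaling, the quasi-likelihood test and Benjamini-Hochberg adjustment over all genes tested. Fits used the 10 libraries of a genotype and region for time, the 20 of a region for genotype and the 20 of a genotype for region. A gene was called at an adjusted p of 0.05 or less. SE is the log2 fold change over the square root of F. RPKM used the deposited gene lengths. Scripts were tested on simulated data. Every member called in a comparison of 120 with 65 days, of term with 120 days, of the genotypes before and at term, of the difference between genotypes or of the regions was named, with values per library for ITGA7 and for up to the 4 called members with the largest change in each direction; of the ligand and adaptor lists, examples come from the 2 called genes with the largest change in each direction. Members and lists were chosen with earlier results of these data known. Alternatives used DESeq2 1.42.0, other scalings and filters, libraries thinned to the smallest depth in the fit, a block and left-out libraries. A second table repeated the CF columns and was not used.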

Additional observations from a re-analysis of the deposited data

Results flagged for a closer look

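The change from 120 days to term differed between CF and WT for 3 integrin results by the test of the difference itself. In distal lung 1 member was called more positive and 1 more negative in CF, beside 4.21% and 5.1% of all genes, so the share of members was close to that of all genes. In proximal lung 1 was called more negative, beside 1.19% of all genes. *ITGA7* in distal lung differed by -1.04 on the log2 scale, CF minus WT (adjusted p = 0.034). It was called in 8 of the 20 fits that left out 1 library each, with adjusted p from 0.0155 to 0.146, and was lost with the WT day 100 libraries, which share an animal label, summed to 1 sample (adjusted p = 0.0563). *ITGA8* in distal lung differed by 1.28 (adjusted p = 0.0292). It was called in 16 of the 20 fits, with adjusted p from 0.0113 to 0.106. *ITGB2* in proximal lung differed by -2.42 (adjusted p = 0.0347). It was called in 11 of the 20 fits, with adjusted p from 0.0126 to 0.2. Groups of 2 libraries allow no test of whether one is an outlier.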

How the results depend on the processing

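With 2 libraries per condition, the number of members called moved with 1 library more than with the scaling. RLE in place of TMM called 12 members in place of 14 in CF distal lung to term. Between genotypes in proximal lung it called 8 in place of 9 before term and 6 in place of 7 at term. Its other counts were unchanged, and it shifted the median log2 fold change of all genes by at most 0.05. Libraries thinned to equal depth gave 8 in place of 9 before term in proximal lung and 7 in place of 8 at term in distal lung. The other genotype counts were unchanged by thinning. Leaving out each library in turn, CF against WT before term gave 7 to 17 members proximally and 7 to 10 distally, and at term 1 to 9 and 5 to 10. From 65 to 120 days it gave 6 to 12 in WT proximal, 5 to 13 in WT distal, 0 to 5 in CF proximal and 4 to 12 in CF distal lung, and from 120 days to term 8 to 15, 4 to 15, 0 to 4 and 5 to 17. The difference between the genotypes in that last change gave 0 to 10 proximally and 0 to 5 distally, and the regions 0 to 0. DESeq2 called 4 members in place of 1 from 65 to 120 days and 3 in place of 0 to term in CF proximal lung, and for the difference 5 in place of 1 in proximal and 5 in place of 2 in distal lung. The bias-adjusted quasi-likelihood fit called 2 in CF proximal lung from 65 to 120 days. Fitting both genotypes of a region together called 4 there and 3 to term in CF proximal lung, and 5 in place of 9 from 65 to 120 days and 7 in place of 13 to term in WT proximal lung. With both WT day 100 libraries summed, 3 in place of 7 were called between genotypes at term in proximal lung and 1 in place of 2 for the difference in distal lung. Removing the length trend gave 2 in place of 1 for the difference in proximal lung. The mean of days 65 to 100, chosen after seeing the data, gave 7 in proximal and 6 in distal lung. The cause of these shifts was not tested.

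Libraries of different time points or genotypes with the same number share only that number, and 4 of 16 such pairs of consecutive time points and 3 of 10 of CF with WT had deviations correlated above 0.1. Of the proximal and distal pairs with the same number, 6 of 10 did, and their correlations ran from -0.094 to 0.626. With the replicate block 0 in place of 1 member was called in CF proximal lung from 65 to 120 days, where the adjusted p of ITGA7 was 0.0804, and 5 in place of 2 for the difference in distal lung. The other counts stayed within 1.5 times. ITGA7 changed sign only in contrasts where it was not called. In WT distal lung to term its log2 fold change of 0.08 ranged from -0.077 to 0.25 without 1 library, below 0 at -0.074 and -0.077 without replicate 1 at 120 days or at term. Between CF regions 0.05 ranged from -0.0056 to 0.093, below 0 without replicate 2 at 100 days, and between WT regions -0.04 ranged from -0.14 to 0.045, above 0 at 0.045 and 0.012 without replicate 1 at 65 days or at term. Over the named genes 1190 values kept direction and side of the threshold when 1 library was left out, 254 lost and 1 gained the call, and under the other settings 729 kept, 44 lost and 2 gained it.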
